A study of Bos taurus with 48 samples.

Results

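Gene expression in the caruncular endometrium of pregnant cows was compared with that of cyclic cows on day 17 of the reproductive cycle. Caruncles are the aglandular projections of the ruminant uterus to which the conceptus attaches. The samples were chosen by their labels, which gave caruncular endometrium as the tissue for 22 of the 44 samples of the series, 12 from pregnant and 10 from non-pregnant cycling cows. These took 26 of the 48 arrays, because 4 caruncular samples were hybridised again. Every cow was a lactating Holstein-Friesian dairy cow, of mixed New Zealand and North American ancestry, with a synchronised oestrous cycle. The 12 pregnant cows had each been given a grade 1 blastocyst on day 7, and the 10 cyclic cows had been given none, so that transfer and pregnancy cannot be told apart. All were slaughtered on day 17. The labels gave a large embryo for 7 of the pregnant cows and a small embryo for 5, and called 6 of them fertile and 6 sub-fertile. RNA of each sample was labelled with Cy5 and set against a Cy3-labelled pool of RNA from all 44 samples, with no dye swap. A level given here is the log2 ratio of a cow to that pool for 1 probe of 60 bases, and levels of different probes cannot be set against each other. A change is the mean level of the pregnant cows less that of the cyclic cows, also on the log2 scale.

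On this day the elongating ruminant conceptus secretes interferon tau, which acts on the endometrium. In the cyclic cow, oestrogen receptor and oxytocin receptor appear in the endometrium late in the luteal phase, and oxytocin then drives the pulses of prostaglandin F2 alpha that end the corpus luteum. In the pregnant cow these pulses do not occur, progesterone stays high, and the uterine lining changes towards attachment and the feeding of the conceptus by its secretions. Genes on a list of 420 tested interferon and immune genes were set aside when the leading genes were named, and the account below is mainly of the other 11247 genes.

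A median of 71.5% of spots on arrays of pregnant cows and of 71.7% on arrays of cyclic cows was well above background. Repeat arrays of a sample differed by an SD of 0.11 to 0.16 on the log2 scale over the probes, which bounds the precision of a single array. The samples lay on 7 slides, of which 2 held both states, 1 with 3 pregnant cows and 1 cyclic cow and 1 with 2 arrays of pregnant cows and 1 of a cyclic cow, so that slide and state were largely confounded. The caruncular sample of 1 cyclic cow, called the divergent cow below, stood apart. Its levels deviated from the mean of its group with an SD of 0.75 over the probes, against 0.31 to 0.46 in the other 21 samples. In it 2694 probes lay more than 2-fold from the median of the other cyclic cows, where those cows had 291 to 705 such probes. Of these probes 84.8% deviated in the same direction in its intercaruncular sample. Its array had 69.4% of spots well above background and a background-relative signal within the range of the rest. Results that rest on this cow are given with and without it.

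Of 15643 probes tested, 1601 (10.2%) passed the threshold of a change of at least 1.5-fold and an adjusted p under 0.05 (limma, Benjamini-Hochberg). The level rose in pregnant cows for 933 probes (5.96%) and fell for 668 (4.27%). Counted by gene, with the brightest probe of each, 1171 of 11667 genes (10%) passed, 684 that rose (5.86%) and 487 that fell (4.17%). On the interferon and immune list 178 of 420 genes rose and 7 fell. Off the list the directions were nearly balanced, with 506 genes that rose and 480 that fell. Over all genes tested, the interferon and immune list included, the rises were larger. By at least 2-fold 323 genes rose and 126 fell, and by at least 4-fold 90 rose and 10 fell. The levels of the 2 groups did not overlap at all for 188 of the genes that rose (1.61% of genes tested) and 35 of those that fell (0.300%). The median change over all genes tested was -0.04. Without the divergent cow, 1621 probes (10.4%) passed, of which 1411 had also passed with it, 895 rose and 726 fell. Of the list members described below PLA2G4A, TGFB2, GREM1, WNT5A, AXIN2, CDC25A, SLC38A1, KCNE4, NRP1, EPAS1, CLDN4, HOXC9, NCAM1, RPS4X and COX6C passed with this cow but not without it. In intercaruncular tissue of the same cows 1165 of 15642 probes (7.45%) passed, and 815 of the 1601 caruncular probes were among them. Within the first set of scans, which held 11 pregnant and 9 cyclic arrays, all 668 falling and all 933 rising probes kept their sign, and within the slide of 3 pregnant cows and 1 cyclic cow 580 and 883 did. The same cows had been used to call the probes, so the kept signs are no independent check.

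**Figure D1:**
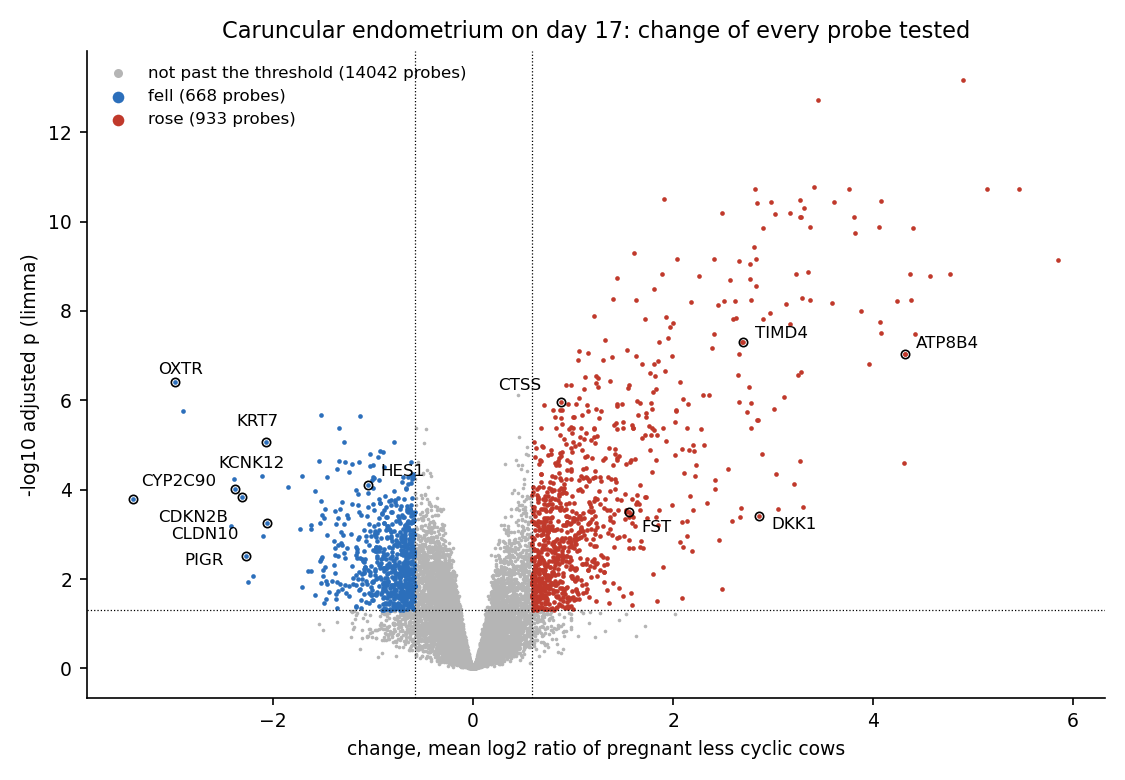
Change of each of the 15643 probes tested (horizontal axis, log2, pregnant less cyclic cows) against -log10 of the limma adjusted p (vertical axis), with dotted lines at a 1.5-fold change and an adjusted p of 0.05. Probes that rose reach larger changes and smaller p than those that fell, and OXTR has the smallest p of the labelled falling genes.

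The largest falls among named genes were those of CYP2C90, a cytochrome P450 of the 2C family (CYP2C18 on the array), and of OXTR, the oxytocin receptor. OXTR (chromosome 22, 17776079 to 17832707 in ARS-UCD2.0) lay between -3.59 and -1.11 in pregnant cows with a median of -2.13, and between -0.71 and 2.13 in cyclic cows with a median of 0.83. Every pregnant cow was below every cyclic cow. The change was -2.98 ± 0.32 (SE), a 7.91-fold fall (adjusted p = 3.92e-07, limma), and -2.92 without the divergent cow. CYP2C90 (chromosome 26, 16076048 to 16117385) ranged from -4.23 to -1.42 with a median of -3.35 in pregnant cows and from -2.03 to 2.90 with a median of 0.10 in cyclic cows. All but 2 of the pregnant cows were below the lowest cyclic cow, and the cyclic cows themselves spread widely. Its change was -3.40 ± 0.57 (adjusted p = 0.000159), and its probe was well above background in 5 of 12 pregnant cows. A pair of further probes described on the array as transcripts similar to CYP2C enzymes, with no gene symbol, changed by -2.42 and -2.10 (adjusted p = 0.000638 and 0.00108). Probes of this family can share transcripts, so these are not 3 separate genes on this evidence. In bulk tissue, fewer cells that express a gene and less RNA of it per cell cannot be told apart, here and below.

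The next largest falls were those of KCNK12 and CDKN2B. KCNK12, a tandem pore domain potassium channel subunit, had levels of -3.46 to 1.08 (median -1.99) in pregnant and 0.13 to 1.64 (median 0.50) in cyclic cows, and 11 of 12 pregnant cows lay below the lowest cyclic cow. It fell by 2.38 on the log2 scale (SE 0.38, adjusted p = 9.51e-05). CDKN2B, an inhibitor of the cyclin D kinases, was between -2.70 and 1.00 in pregnant and between -0.96 and 2.20 in cyclic cows, with the same pattern of 11 cows below and 1 within the cyclic range. Its fall was 4.97-fold (adjusted p = 0.000147). Of the other channel subunits among the 20 largest falls, KCNE3, an accessory subunit of voltage-gated channels, changed by -1.62 ± 0.42 and KCNJ16, an inward rectifier, by -1.58 ± 0.25. The pregnant levels of KCNJ16 ran from -2.03 to -0.64 and the cyclic ones from -1.03 to 1.33, where the lowest cyclic cow was the divergent cow.

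PIGR, TFF3, KRT7, CLDN10, CDA and BTRAPPIN-5 were also among the 20 largest falls. PIGR carries polymeric immunoglobulin A across epithelia, and its levels were -4.28 to 1.11 (median -2.55) in pregnant and -1.01 to 2.01 (median -0.57) in cyclic cows, a change of -2.27 ± 0.52 (adjusted p = 0.00311). The groups overlapped through 2 pregnant cows. TFF3, a trefoil peptide of mucous surfaces, had levels of -4.92 to -1.11 in pregnant and -3.68 to 2.24 in cyclic cows and changed by -2.26 ± 0.63 (adjusted p = 0.0114), with 6 of 12 pregnant cows below the cyclic range and 5 of 12 well above background. KRT7, a keratin of simple epithelia, lay between -2.70 and -0.14 (median -1.70) in pregnant and between -0.30 and 1.18 (median 0.51) in cyclic cows, so that 1 pregnant cow reached the cyclic range. It fell 4.20-fold (adjusted p = 8.78e-06). CLDN10, a tight junction protein that sets ion permeability, changed by -2.06 ± 0.39, with 10 of 12 pregnant cows below the cyclic range. CDA, which deaminates cytidine, changed by -1.85 ± 0.29, and its probe was well above background in 5 of 12 pregnant and all 10 cyclic cows. BTRAPPIN-5, of the trappin protease inhibitors, changed by -1.53 ± 0.29.

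The remaining 8 of the 20 largest falls lay between 2.20 and 1.52 on the log2 scale. SOSTDC1, which binds BMP ligands and also acts on WNT signalling, had a change of -2.20 ± 0.59, but its levels were -3.54 to 0.06 in pregnant and -3.50 to 2.70 in cyclic cows, so that all but 1 of the pregnant cows lay within the cyclic range. Its probe was well above background in 2 of 12 pregnant and 8 of 10 cyclic cows. NTSR2, a neurotensin receptor, was between -3.09 and -1.38 in pregnant and between -1.49 and 1.94 in cyclic cows, with a change of -2.11 ± 0.32 (adjusted p = 4.94e-05) and the same limit, 2 and 9 cows well above background. The others, from CA8, a carbonic anhydrase-related protein without the enzyme's activity, which fell by 1.71, to ADAMTS18, a secreted metalloprotease, which fell by 1.52, included MCCD1, MSTN, RORB and KREMEN1. With normexp background correction, which here added an offset to every spot, CYP2C90 changed by -2.43, TFF3 by -1.57, SOSTDC1 by -1.30, NTSR2 by -1.14, CDA by -1.13 and ADAMTS18 by -0.78, and all 6 still passed. An unnamed probe, A_73_110903, which the array's description places on chromosome 22 as OXTR is, changed by -2.90 ± 0.34. Its levels, -3.49 to -1.07 in pregnant and -0.85 to 2.14 in cyclic cows, did not overlap.

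**Figure D2:**
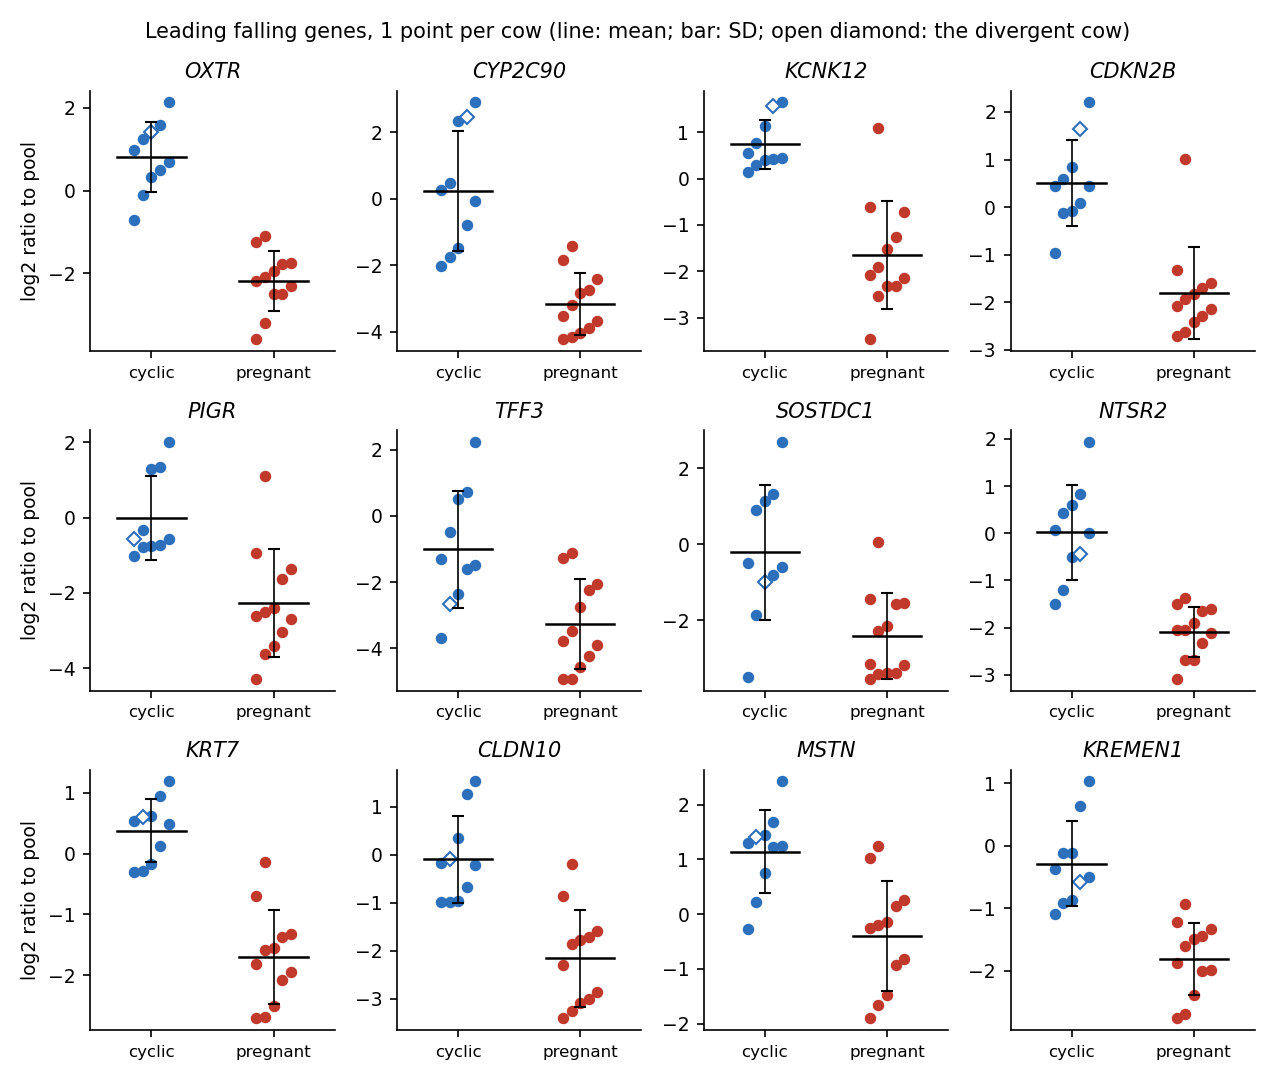
Level (log2 ratio to the pool) of 12 of the leading falling genes in each of 10 cyclic and 12 pregnant cows, with the mean, the SD and the divergent cow as an open diamond. OXTR has no overlap between the groups, SOSTDC1 and TFF3 overlap widely, and single pregnant cows lie within the cyclic range for KCNK12 and CDKN2B.

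The 20 falls were not shared evenly by the cows. A single pregnant cow lay within the cyclic range for 15 of the 20 genes and another for 8, and the other pregnant cows for 2 to 7. Among cyclic cows the number within the pregnant range went from 1 to 14 of the 20, and was 7 for the divergent cow. Without the divergent cow the 20 changes ran from -3.15 to -1.50, each with an adjusted p of at most 0.00934. In intercaruncular tissue all 20 were below 0 and 18 passed the threshold there, all but MSTN and BTRAPPIN-5. These genes were chosen by their caruncular change, and for each of them the caruncular change was the larger of the pair. The test of the difference between tissues passed for 0 of the 20 (all probes: 8 of 15642, 0.0511%), and for 5 of the 20 when the cow was a fixed replicate block (1.01% of all probes), namely CYP2C90, KCNK12, PIGR, KRT7 and CLDN10. The cows on the slide of 3 pregnant cows and 1 cyclic cow were among those by which the genes were chosen. Within that slide 18 of the 20 stayed below 0, and TFF3 and ADAMTS18 were at 0.051 and 0.93. Under a random slide block the adjusted p of these 2 genes was 0.092 and 0.122.

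**Figure D3:**
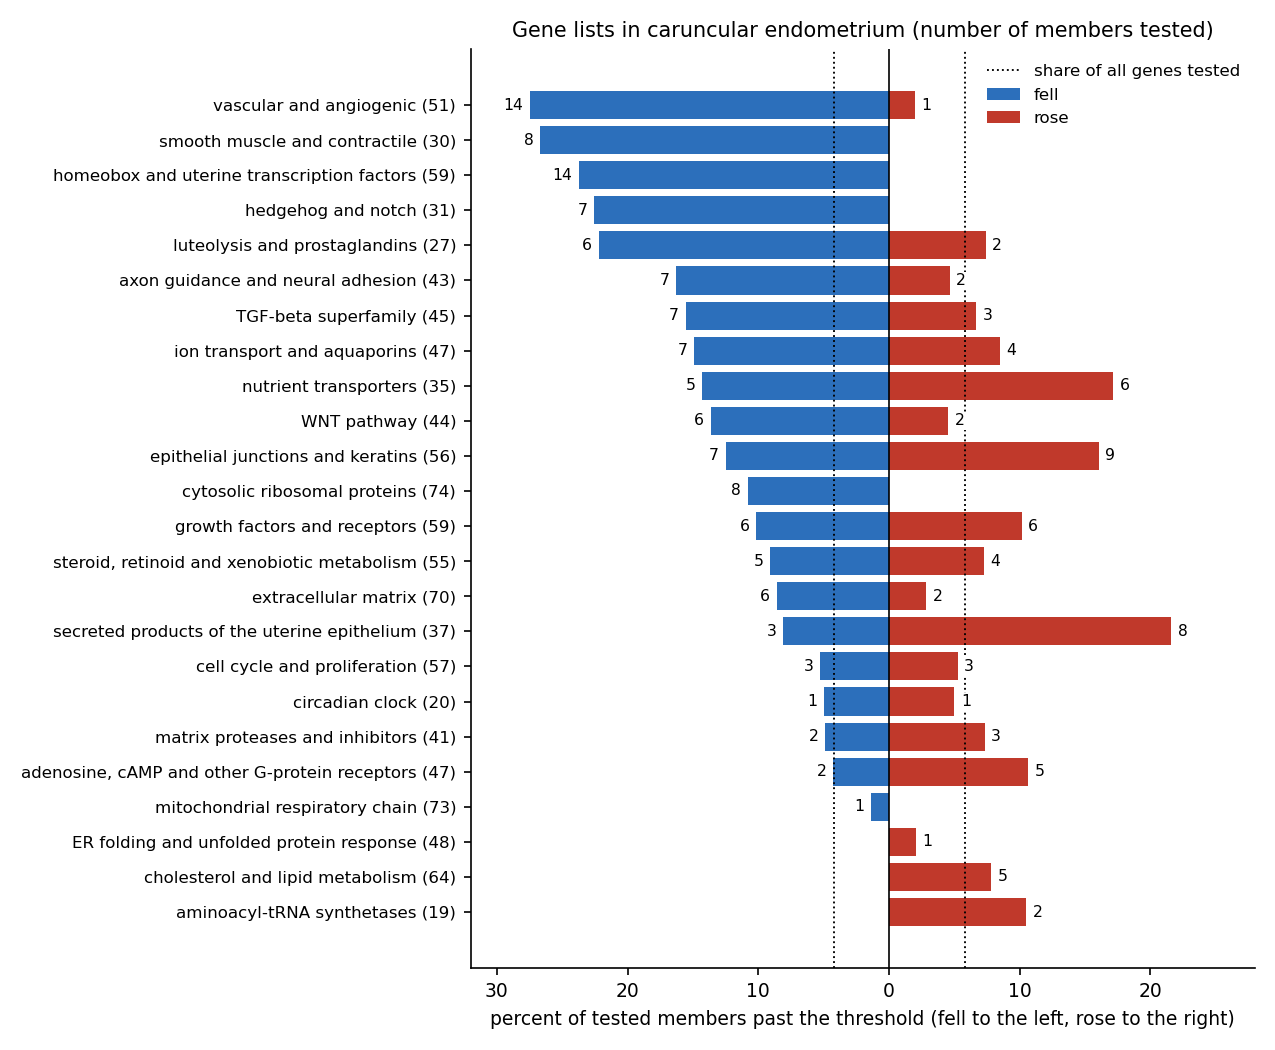
Percent of the tested members of 24 gene lists that fell (to the left) or rose (to the right), with the number of genes at each bar, the number tested in brackets and dotted lines at the share of all genes tested (4.17% and 5.86%). The vascular, smooth muscle, homeobox and hedgehog and notch lists have falls in over 20% of members and at most 1 rise. Some genes are on several lists.

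Of the list of luteolysis and prostaglandin genes, 6 of 27 tested members fell and 2 rose, against 4.17% and 5.86% of all genes, and the median change was -0.23. Without the divergent cow 7 fell and 1 rose. OXTR led the list. ESR1, the oestrogen receptor alpha, ranged from -0.62 to 1.23 in pregnant and from 0.59 to 2.06 in cyclic cows, and 8 of 12 pregnant cows lay below the lowest cyclic cow. It changed by -0.96 ± 0.21 (adjusted p = 0.0024), and by -0.87 without the divergent cow, in which it was highest. PGR, the progesterone receptor, changed by -0.23 ± 0.17 (adjusted p = 0.316) and the groups overlapped almost fully. Enzymes of prostaglandin synthesis did not move together. PTGS2, the inducible cyclooxygenase, changed by -0.03 ± 0.26 (adjusted p = 0.944) and PTGES, the prostaglandin E synthase, by -0.24 ± 0.15 (adjusted p = 0.257). AKR1B1, a prostaglandin F synthase of the bovine endometrium, changed by -0.74 ± 0.24 (adjusted p = 0.0271), with 9 pregnant cows below and 2 above the whole cyclic range. Under a random slide block its adjusted p was 0.119. SLCO2A1, the prostaglandin transporter, changed by -0.90 ± 0.25, while another probe of it gave -0.62 and did not pass. PLA2G4A, the phospholipase that frees arachidonic acid, and the carbonyl reductase CBR1 rose by 0.62 and 0.80.

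Ligands and antagonists of the TGF-beta superfamily moved in both directions, with 7 of 45 tested members that fell, 3 that rose and a median of -0.17. MSTN, myostatin, had levels of -1.90 to 1.25 in pregnant and -0.27 to 2.43 in cyclic cows and fell 2.90-fold (adjusted p = 0.00387). INHBB and INHBA, which encode activin and inhibin beta subunits, changed by -1.03 ± 0.27 and -0.79 ± 0.22, although a further INHBA probe gave -0.21 and did not pass. The divergent cow had the lowest cyclic level of INHBB and the highest of INHBA. FST, follistatin, which binds activins and myostatin, went the other way, from -2.29 to -0.02 in cyclic cows to -0.16 to 1.30 in pregnant cows, a 2.94-fold rise (adjusted p = 0.000309). Among BMP antagonists NOG, noggin, changed by -0.96 ± 0.22 and GREM1 by -0.66. TGFB2 fell by 0.67 and BMP6 by 0.64, and SKIL, a repressor of SMAD signalling, and TGFBI rose by 0.78 and 0.70.

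In the WNT pathway 6 of 44 tested members fell and 2 rose (median -0.15). The 2 that rose were secreted regulators. DKK1, an antagonist that binds the LRP co-receptors together with Kremen proteins, went from -4.71 to 0.65 (median -1.21) in cyclic cows to -0.74 to 2.80 (median 1.66) in pregnant cows, with 9 of 12 pregnant cows above the cyclic range. Its change was 2.86 ± 0.52 (adjusted p = 0.000395). RSPO1, an R-spondin that amplifies WNT signals, rose 5.87-fold, from a cyclic median of -1.94 to a pregnant median of 0.92. The highest cyclic cow for RSPO1 was the divergent cow, at -0.03. KREMEN1, a receptor for DKK1, fell 2.87-fold, with 11 of 12 pregnant cows below the cyclic range. The ligands WNT2B, WNT6 and WNT5A fell by 0.89, 0.86 and 0.62, the receptor FZD10 by 0.85, and AXIN2, itself a transcriptional target of the pathway, by 0.59. WNT2B had an adjusted p of 0.0444, and of 0.209 under a random slide block.

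Homeobox and other uterine transcription factors fell in 14 of 59 tested members and none rose (median -0.21). The 7 HOXB genes tested, which lie together on chromosome 19 (37867472 to 37948660 in ARS-UCD2.0), all fell, with changes of -1.35 to -0.84. In the other clusters 1 of 9 HOXA genes (HOXA2), 2 of 5 HOXC genes (HOXC6 and HOXC9) and 0 of 5 HOXD genes fell. HOX proteins pattern the body axis and the reproductive tract. HOXB6 ranged from -2.77 to 0.03 (median -1.51) in pregnant and from -1.34 to 0.83 (median -0.16) in cyclic cows, and the lowest cyclic cow was the divergent cow. Its change was -1.35 ± 0.31 (adjusted p = 0.00303), and -1.49 without that cow. HOXB2 changed by -1.32 ± 0.28 and HOXB8 by -0.98 ± 0.25. HOXA10, known for its part in endometrial receptivity in other species, changed by 0.46 ± 0.22 and did not pass (adjusted p = 0.126). MSX1, a homeobox gene of the uterine epithelium, had levels of -2.35 to -0.32 in pregnant and -1.13 to 1.19 in cyclic cows and fell 2.40-fold (adjusted p = 0.00201). SOX4, DLX5 and SNAI2 fell by 0.86, 0.67 and 0.62. Under a random slide block 7 members of the list passed, and HOXB8 had an adjusted p of 0.0522.

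**Figure D4:**
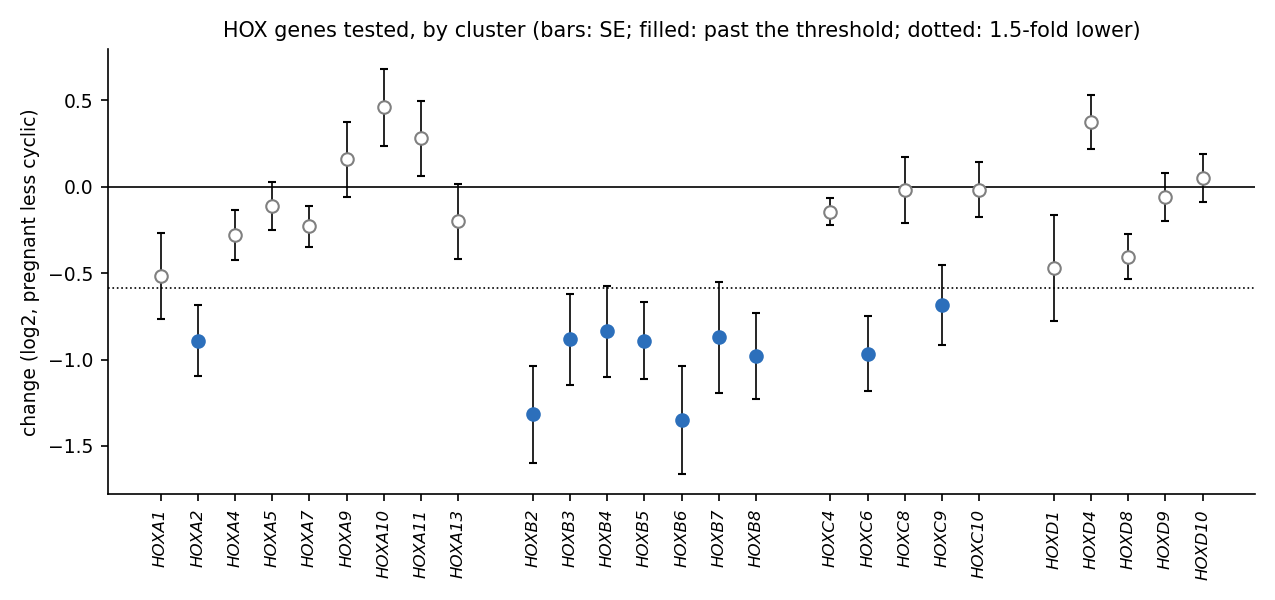
Change (log2, pregnant less cyclic) of the 26 HOX genes tested, grouped by cluster, with SE bars, filled points for genes past the threshold and a dotted line at a 1.5-fold fall. All 7 HOXB genes lie at or below -0.84, and the HOXD genes scatter about 0.

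In the hedgehog and notch list 7 of 31 tested members fell and none rose (median -0.22). HES1, a transcriptional repressor downstream of Notch, changed by -1.05 ± 0.16. HES1 had levels of -1.37 to -0.15 in pregnant and -0.50 to 0.84 in cyclic cows (adjusted p = 7.73e-05), and the lowest cyclic cow was again the divergent cow. Without it the change was -1.12. Notch ligands and receptors of blood vessels were among the others, with NOTCH4 at -0.74 ± 0.14, DLL4 at -0.73 and JAG1 at -0.62. NOTCH4, DLL4 and JAG1 are also on the vascular list below, so the falls of these lists are not separate. NOTCH4 was below the lowest cyclic cow in 10 of 12 pregnant cows.

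Vascular and angiogenic genes had the largest share of falls of the lists, 14 of 51 tested with 1 rise and a median of -0.36. PECAM1, a junction protein of endothelial cells, ranged from -1.32 to 0.73 (median -0.83) in pregnant and from -0.13 to 1.31 (median 0.87) in cyclic cows. Of 12 pregnant cows 9 lay below the cyclic range, and the change was -1.29 ± 0.25 (adjusted p = 0.000597). TIE1, an endothelial receptor kinase, was below the cyclic range in 9 of 12 pregnant cows (adjusted p = 0.000205), and EDN3, an endothelin, changed by -1.24 ± 0.40, with an adjusted p of 0.0243 that was 0.0875 under a random slide block. ROBO4, NOS3, TEK and NRP1, of vessel guidance, nitric oxide synthesis, angiopoietin and semaphorin signalling, fell by 0.81, 0.71, 0.61 and 0.61. The gene that rose was EPAS1, a hypoxia-inducible factor, by 0.64, and without the divergent cow none rose and 13 fell. The 10 endothelial markers are all members of the vascular list too, so they are no separate support. All 10 were below 0 and 5 fell (median -0.53). Their mean level was -0.72 to 0.39 in pregnant and -0.25 to 0.56 in cyclic cows, or 0.16 to 0.56 without the divergent cow, the lowest cyclic cow. Defining markers differed in size, with CDH5 at -0.45, VWF at -0.29 and KDR at -0.15, none of them past the threshold. Their part in the result was not tested.

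Smooth muscle and contractile genes fell in 8 of 30 tested members, and none rose (median -0.46). ACTA2, smooth muscle alpha actin, had levels of -2.11 to 0.95 (median -0.47) in pregnant and -0.87 to 2.00 (median 1.17) in cyclic cows and changed by -1.48 ± 0.37 (adjusted p = 0.00549). CNN1, calponin, which binds actin and tropomyosin, fell 2.58-fold, and TAGLN, transgelin, 1.89-fold. ACTG2, smooth muscle gamma actin, ranged from -2.18 to 1.03 in pregnant and from -0.76 to 1.63 in cyclic cows (change -1.17 ± 0.34). Its probe is printed as an example of what was hybridised for a gene of this group:
ACTG2: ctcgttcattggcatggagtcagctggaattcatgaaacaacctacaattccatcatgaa
MYH11, FLNA, TPM2 and CAV1 fell by 0.88, 0.79, 0.64 and 0.63. The 9 smooth muscle markers tested are all members of the same list, so they are no separate support. Of the 9, 5 fell (median -0.88), while desmin (DES), SMTN and SYNPO2 were at 0.03, 0.25 and 0.06. The mean of the 9 was -1.28 to 0.45 in pregnant and -0.37 to 0.92 in cyclic cows. Their part in the result was not tested. Under a random slide block 5 members of the list passed.

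**Figure D5:**
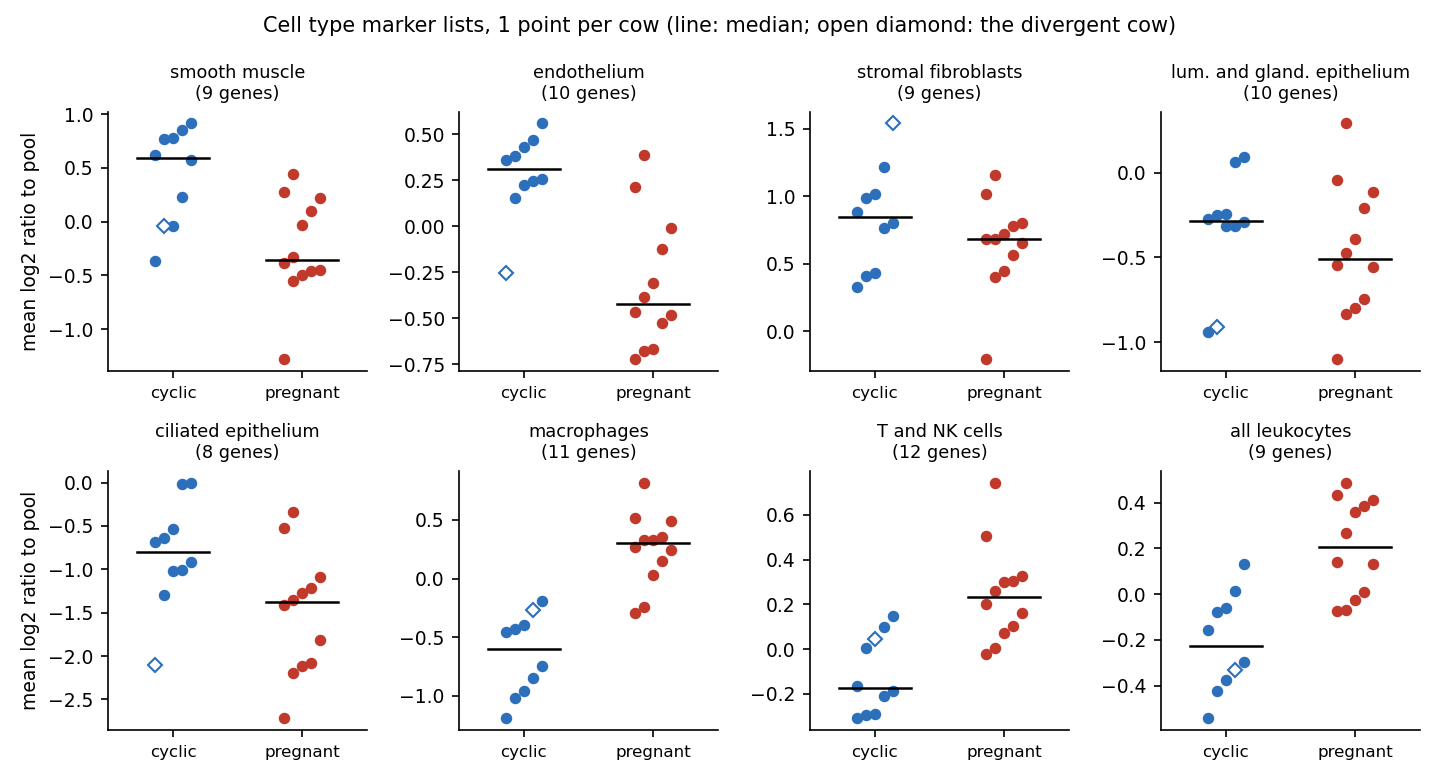
Mean level (log2 ratio to the pool) over the tested markers of 8 cell types in each of 10 cyclic and 12 pregnant cows, with the median of each group and the divergent cow as an open diamond. Smooth muscle and endothelial markers are lower and macrophage markers higher in most pregnant cows, while stromal and epithelial markers overlap.

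The other marker lists moved in either direction. Of all genes tested 5.86% rose and 4.17% fell. Macrophage markers rose in 7 of 11 tested (median 0.83), led by C1QB at 1.79, and their mean was -0.29 to 0.82 in pregnant and -1.19 to -0.19 in cyclic cows. T and NK cell markers rose in 3 of 12, all of them cytotoxic cell genes (KLRF1, NKG7 and PRF1), and pan-leukocyte markers in 1 of 9 (CD53). Ciliated cell markers were below 0 in 8 of 8 and fell in 2 (median -0.67), and in 6 without the divergent cow. Luminal and glandular epithelial markers were split, 2 that rose and 2 that fell of 10, and stromal markers likewise, 1 and 2 of 9. None of 4 glandular, 6 B cell or 3 red cell markers passed, although 1 glandular marker, FOXA2, fell without the divergent cow (-1.25). Of 12 trophoblast markers on the array 2 were above the filter, and their mean lay between -0.34 and 0.30 in pregnant and between -0.57 and 0.37 in cyclic cows.

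Of 70 matrix genes tested 6 fell and 2 rose (median -0.17), a share close to that of all genes (10%). THBS1, thrombospondin 1, changed by -1.10 ± 0.29 and COL3A1, fibrillar collagen III, by -0.92 ± 0.25, with levels of -0.49 to 1.91 in pregnant and 0.18 to 2.26 in cyclic cows. The highest cyclic level of COL3A1 was that of the divergent cow, and its change without it was -0.84. LOXL4, COL12A1, OGN and POSTN fell by 0.91, 0.78, 0.78 and 0.67, LOXL4 with an adjusted p of 0.0482, or 0.211 under a random slide block. FMOD, fibromodulin, which organises collagen fibrils, rose by 0.81 (SE 0.22), and COL18A1 by 0.66. Among matrix proteases and inhibitors, 3 of 41 rose and 2 fell (median 0.08), also a share close to that of all genes. The 3 that rose were lysosomal cathepsins, CTSS, CTSZ and CTSB, at 0.88 ± 0.10, 0.81 ± 0.13 and 0.79 ± 0.13. CTSS, which is on the immune list, did not overlap between the groups, and macrophage markers rose beside these genes, as given above. Their part in the result was not tested. ADAMTS4, an aggrecanase, and MMP11 fell by 0.86 and 0.67.

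Epithelial junction and keratin genes changed in 16 of 56 tested, 9 that rose and 7 that fell, around a median of -0.05. Keratins went in both directions. KRT7 fell as described, with KRT10, KRT18 and KRT19 at -0.93, -0.86 and -0.77. KRT17, a keratin of basal and activated epithelium, rose 4.28-fold, from a cyclic range of -2.82 to -1.41 to a pregnant range of -2.49 to 2.05 (adjusted p = 0.00192). All but 2 of the pregnant cows were above the cyclic range. Its probe is shown because the keratins are a family of similar sequences:
KRT17: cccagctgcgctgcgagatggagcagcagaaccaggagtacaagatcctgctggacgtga
Claudins were divided in the same manner, with CLDN10 down and CLDN1, CLDN4 and CLDN23 up by 0.75, 0.95 and 1.04. CDH1, the adherens junction protein E-cadherin, rose by 1.02, and the gap junction genes GJB2 and GJB1 by 1.84 and 0.66. PPL, periplakin, fell by 1.08. SPP1, osteopontin, a secreted ligand of integrins, had the largest rise of the list at 2.49 ± 0.74, with levels of -3.11 to 3.17 in pregnant cows alone. Its adjusted p was 0.0169, and 0.0835 under a random slide block.

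On the list named secreted products of the uterine epithelium 8 of 37 tested members rose and 3 fell (median 0.18). The 4 with the largest change, IDO1 at 3.27, SPP1 at 2.49, LGALS9 at 1.92 and S100A2 at 1.44, are on the interferon and immune list. IDO1 is an enzyme that breaks down tryptophan within cells, so not every member of the list is a secreted product. IGFBP1, a binding protein of insulin-like growth factors that marks conceptus elongation in ruminants, went from -1.76 to 0.63 (median -0.96) in cyclic cows to -1.13 to 1.48 (median 0.80) in pregnant cows. The rise was 2.36-fold (adjusted p = 0.00867), with 7 of 12 pregnant cows above the cyclic range, and it was measured with this probe:
IGFBP1: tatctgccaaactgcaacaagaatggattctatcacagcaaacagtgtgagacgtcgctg
The serine protease PRSS8 rose by 0.79, and LGALS3BP and S100A12, which are also on the immune list, by 1.05 and 0.99. SERPINA1, alpha-1 antitrypsin, fell by 1.41, GRP, gastrin-releasing peptide, by 0.88 and RBP4, which carries retinol, by 0.82.

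Transporters of nutrients were among the lists with most changes, 11 of 35 tested, of which 6 rose and 5 fell (median -0.09). SLC2A1, a glucose carrier, rose 2.20-fold, from a cyclic range of -1.84 to -0.43 to a pregnant range of -1.11 to 1.06 (adjusted p = 0.00357), while SLC2A3, another glucose carrier, fell by 0.84. SLC27A2, of fatty acid uptake, changed by 1.34 ± 0.31, SLC6A6, which carries taurine, by 1.17 ± 0.20 and SLC15A3, a lysosomal peptide and histidine carrier on the immune list, by 2.06 ± 0.22. SLC6A6 was well above background in 6 of 10 cyclic cows. The monocarboxylate carrier SLC16A1 and the glutamine carrier SLC38A1 rose by 1.07 and 0.89. Carriers of glutamate and neutral amino acids made up the other falls, with SLC1A1, SLC7A8, SLC38A3 and SLC7A5, which fell by 1.11, 0.69, 0.65 and 0.64. Ion transport genes fell in 7 of 47 and rose in 4 (median -0.18). Besides the potassium channels, S100G, a calcium-binding protein of epithelia that transport calcium, fell 2.52-fold, with 11 of 12 pregnant cows below the cyclic range and 1 above it. KCNQ1, a voltage-gated channel that pairs with KCNE3, fell by 1.15, the water channel AQP1 by 1.09 and the phosphate carrier SLC34A2 by 1.00. SLC39A2, of zinc uptake, SLC40A1, the iron exporter, AQP8 and KCNE4 rose by 1.02, 0.98, 0.65 and 0.65.

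Growth factors and receptors changed in 12 of 59 tested, 6 in each direction (median 0.07). FGFBP1, which releases fibroblast growth factors from the matrix, rose 4.57-fold, from a cyclic range of -3.48 to -0.86 to a pregnant range of -2.76 to 1.95 (adjusted p = 0.00241), with 10 of 12 pregnant cows above the cyclic range. The fibroblast growth factors FGF18 and FGF7 fell by 1.38 and 1.11, and FGF9 rose by 0.62. FGFR1, a receptor of this family of factors, fell by 1.14. The FGF18 probe was well above background in 3 of 12 pregnant and 8 of 10 cyclic cows. All 3 matricellular CCN genes past the threshold, CCN3, CCN1 and CCN5, fell, by 1.47, 1.08 and 0.94. PDGFRA, LIFR and the EGF receptor ligand BTC rose by 0.82, 0.77 and 0.72.

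Cell cycle genes changed in 6 of 57 tested, 3 in each direction (median -0.04), a share close to that of all genes. The mitotic cyclins went apart. CCNB2 rose from a cyclic range of -1.87 to -0.45 to a pregnant range of -0.58 to 1.52, a change of 2.03 ± 0.24 (adjusted p = 1.75e-06), and 11 of 12 pregnant cows were above the highest cyclic cow, the divergent cow. CCNB1 changed by -1.36 ± 0.38 (adjusted p = 0.0118, and 0.0952 under a random slide block). Since the direction differs between related genes, the CCNB2 probe is given:
CCNB2: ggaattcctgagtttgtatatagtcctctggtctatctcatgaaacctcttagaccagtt
MCM10, of replication origins, and RRM2, a subunit of ribonucleotide reductase, rose by 1.90 and 0.82, MCM10 with an SE of 0.47. CDC25A fell by 0.60, beside CDKN2B.

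Enzymes of steroid, retinoid and xenobiotic metabolism changed in 9 of 55 tested, 4 that rose and 5 that fell (median -0.11). CYP26B1, which degrades retinoic acid, rose 3.48-fold, with levels of -2.03 to 2.24 in pregnant and -2.50 to 1.25 in cyclic cows and 4 pregnant cows above the cyclic range (adjusted p = 0.00771). The retinoid carriers CRABP1, RBP4 and CRABP2 fell by 0.93, 0.82 and 0.78. CYP39A1, an oxysterol hydroxylase, and HSD17B12 rose by 1.14 and 0.98. HSD17B6, which oxidises androgens, changed by -1.12 ± 0.37, and its adjusted p of 0.0289 was 0.189 under a random slide block. Cholesterol and lipid genes rose in 5 of 64 and none fell (median 0.00). The share past the threshold, 7.81%, was under that of all genes (10%), and 5.86% of all genes rose. FABP3, a fatty acid carrier, had levels of -2.42 to -1.13 in cyclic and -2.16 to 1.95 in pregnant cows and rose 4.39-fold (adjusted p = 0.000509), and LIPG, ELOVL6, PLIN2 and ACSL6, of lipid release, elongation, droplets and activation, rose by 1.02, 1.01, 0.82 and 0.61. No gene of cholesterol synthesis on the list passed.

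Genes of axon guidance and neural adhesion fell in 7 of 43 tested and rose in 2 (median -0.29). Of the 7, ROBO4, SEMA3F, PLXNA2, EFNA1 and NRP1 are also on the vascular list, and CNTN4, a contactin, changed by -0.85 ± 0.22. SEMA3F had its lowest level of all 22 cows in the divergent cow, at -1.17, and changed by -0.74 with this cow and -0.90 without it. NCAM1 rose by 0.70, but by 0.52 without the divergent cow, which is under the threshold. G-protein receptors and their regulators rose in 5 of 47 and fell in 2 (median 0.01), against 5.86% and 4.17% of all genes. Without the divergent cow 4 fell, where NPY1R and ADCY6 passed at -0.68 and -0.60. P2RY6, a receptor for uridine nucleotides, GPRC5A, RGS2 and ADRA2A rose by 1.17, 1.16, 1.13 and 1.13, RGS2 with an adjusted p of 0.0199 that was 0.128 under a random slide block.

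Genes of the basic machinery of the cell changed little, with the ribosome as the largest shift. Of 74 cytosolic ribosomal protein genes 8 fell and 70 were below 0, with a median of -0.28. The share past the threshold, 10.8%, was close to that of all genes (10%). Of all genes 4.17% fell and 57.3% were below 0. RPS26 did not overlap between the groups, with -1.02 to -0.10 in pregnant and -0.09 to 1.77 in cyclic cows, and it changed by -0.81 ± 0.17, or by -0.65 without the divergent cow. The mean level of the list in this cow, 0.95, was the highest of the 22, against -0.05 to 0.67 in the other cyclic and -0.20 to 0.40 in the pregnant cows. Without it 5 genes of the list fell and the median was -0.21. RPS4X changed by -0.66 with and -0.56 without it, and COX6C, the single respiratory chain gene past the threshold of 73 tested, by -0.63 and -0.58, so that both lost the call. The respiratory chain list had a median of 0.03. Of 48 endoplasmic reticulum folding genes SSR3, a translocon subunit, rose (0.75 ± 0.14), and of 19 aminoacyl-tRNA synthetases WARS1 and YARS1, for tryptophan and tyrosine, by 1.90 and 0.60. WARS1 is on the immune list. Of the folding genes 2.08% passed and of the synthetases 10.5%, against 10% of all genes. Of 20 clock genes 1 rose and 1 fell (median -0.03), the same share as that of all genes (10%). The gene that rose was NFIL3, a repressor of clock output, by 0.80.

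The 12 largest rises off the interferon and immune list all exceeded 4-fold. The list was made by symbol, so being off it does not place a gene outside the interferon response or immune cells. ATP8B4, of the phospholipid-transporting P-type ATPases, led with levels of -1.59 to 2.07 (median 1.08) in pregnant and -4.54 to -2.31 (median -3.48) in cyclic cows. The groups did not overlap, and the change was 4.32 ± 0.42 (adjusted p = 9.17e-08). Its probe was well above background in all pregnant and 2 of 10 cyclic cows, and those of SLC7A9, a cystine and basic amino acid carrier, and TMEFF2, a membrane protein with follistatin-like domains, in 3 and 2 of the 10, so the cyclic levels of these genes rest on dim spots. With normexp background correction the changes of ATP8B4, SLC7A9 and TMEFF2 were 2.83, 2.34 and 1.76. SLC7A9 changed by 3.11 ± 0.34 and TMEFF2 by 2.78 ± 0.35. KIF5C, a kinesin motor, changed by 2.84 on its brightest probe, and by 2.23 and 0.15 on 2 others. PNPT1, a mitochondrial exoribonuclease, TIMD4, a phosphatidylserine receptor, MYO5A, an actin motor, and TRANK1 each rose without overlap, by 2.76, 2.70, 2.51 and 2.44. RASEF, a Rab GTPase, and DNASE1L3, a secreted nuclease, rose by 2.41 and 2.21. For DNASE1L3 the divergent cow, at 0.72, was the highest cyclic cow and the others were at -0.72 or below. All 12 stayed above 0 within each slide and each set of scans that held both states, in the same cows by which they were chosen.

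Among genes off the immune list that passed the threshold in caruncular tissue, the 5 with the smallest p for a difference of the change between tissues were NDST3, NME7, KRT7, TCEA3 and SYNE4. NDST3, a sulphotransferase of heparan sulphate synthesis, rose by 1.52 in caruncular tissue and had a change of -0.61 in intercaruncular tissue, which did not pass there. Its caruncular levels were -0.05 to 2.21 in pregnant and -1.11 to 0.52 in cyclic cows, the highest cyclic cow being the divergent cow, and its change was 0.82 with normexp. The difference between tissues was 2.13 (adjusted p = 0.00322, limma interaction). NME7, of the nucleoside diphosphate kinase family, changed by -0.72 in caruncular and 0.45 in intercaruncular tissue, a difference of -1.17 (adjusted p = 0.0455). Its caruncular change had an adjusted p of 0.105 under a random slide block. KRT7 at -1.32, TCEA3, a transcription elongation factor, at -1.05 and SYNE4, a protein of the nuclear envelope, at -0.98 did not pass this test (adjusted p = 0.203, 0.151 and 0.196), but did when the cow was a fixed replicate block (0.0245, 0.00513 and 0.0296).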

How the data were processed

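RNA of 22 caruncular samples was measured on 26 two-channel arrays. The deposited scanner files hold spot intensities and, per the file headers, the log10 ratio of Cy5 to Cy3 after background subtraction and LOWESS within the array by Agilent Feature Extraction 9.5.3.1 (the study's methods name another version). The authors' deposited value table holds log2 ratios of the same arrays and was used as an alternative.

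The log10 ratios were converted to log2, averaged over the spots of a probe, centred on the array median and averaged over the 2 arrays of a repeated sample, so that the cow was the replicate. A probe was tested when Cy5 was well above background with a raw intensity of at least 80 in at least 22 of 44 samples (15643 of 21475 probes). Pregnant and cyclic cows were compared by limma 3.58.1 (lmFit, eBayes; R 4.3.3), two-sided, called at 1.5-fold with p adjusted by Benjamini-Hochberg under 0.05; limma takes the place of the study's t-test, which was run as an alternative. The difference between tissues was an interaction in the fit of 44 samples, called at an adjusted p under 0.05. The 2 tissues of a cow share its number in the labels and come from 1 animal, and the cow was therefore also fitted as a block.

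Symbols came from the array's description and were updated through the reference table (ARS-UCD2.0), and positions are those of that table. Symbols and accessions were in conflict for 217 probes, which entered no list. Genes were named by a rule: the 20 largest falls and 12 largest rises off the immune list, up to 4 members of each of 24 gene lists, 10 fixed genes, the 5 with the smallest interaction p among genes called in caruncular tissue off that list, and the 5 unnamed probes with the largest fall; other members are given by their change alone. A few list members are not reported here. Members of 12 marker lists were described in the same way. The members and lists were chosen with earlier results of these data known, so a list's count is no independent support. Probe sequences are those the study listed for its array, and were held for 72 of 117 named probes.

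Alternatives were normexp background correction (offset 50) with loess, no centring, no filter and 2 other filters, the methods' t-test in Welch's form, the authors' deposited values, 1 array of a repeated sample, slide or scan date as a block, the larger set of scans alone, all 44 samples in 1 fit and the mean over a gene's probes. On simulated data for this comparison (15643 probes, 50 changed per size), 48% of 1.5-fold, 92% of 2-fold and 100% of 4-fold changes were recovered, with 5 false calls. A true change of 1.5-fold lies at the fold threshold itself, so an estimate just under it is not called. The 48% is therefore set largely by the threshold and is no measure of sensitivity. The effect of slide, or of the divergent cow, on the recovery and the false calls was not tested. Tables and figures used Python 3.11.15, pandas 2.3.3, numpy 2.4.6 and matplotlib 3.10.9.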

Additional observations from a re-analysis of the deposited data

Results flagged for a closer look

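In 15 of 117 named genes and probes 1 cyclic cow lay farther from the other 9 than Dixon's test for a single outlying value allows, where chance gives about 1 in 20. Groups of 12 were not tested. The divergent cow was the outlying cow in 8 of the 15. It was high for RPS26 (1.77, others at most 0.34), RPS4X (1.31), DNASE1L3 (0.72), CCNB2 (-0.45) and MYO5A (-1.38), and low for LGALS9 (-2.54, others at least -1.35), NCAM1 (-1.27) and SEMA3F (-1.17). A second cyclic cow was outlying in 5 genes, high for CYP26B1 (1.25), BTRAPPIN-5 (0.64) and WARS1 (-1.07) and low for RPL35A (-0.28) and TMEFF2 (-4.11). Other cyclic cows were high for PLIN2 (0.58) and low for TRANK1 (-2.75).

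The change with pregnancy differed between caruncular and intercaruncular tissue by the interaction test for NDST3, by 2.13, and for NME7, by -1.17.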

How the results depend on the processing

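The count of 1601 probes past the threshold stayed between 1191 (slide as a random block) and 1748 (larger set of scans alone) under every alternative but 1. With the slide as a fixed block, which rests on the slide of 3 pregnant cows and 1 cyclic cow, 57 passed, 52 that rose and 5 that fell, and the count of every gene list was 0 but for smooth muscle (1) and secreted products (1). With the slide as a random block 429 probes fell, and the lists with counts moved over 1.5 times were luteolysis (5), smooth muscle (5), nutrient transporters (7), epithelial junctions (10), homeobox (7), clock (1), tRNA synthetases (1) and axon guidance (5). Other list counts that moved were 4 for WNT and 5 for ribosomal proteins with normexp, 9 for proteases in the larger set of scans, 1 for the clock without a filter, 5 for ribosomal proteins with the first array alone, 1 for tRNA synthetases with the repeat array alone, and 5 for ribosomal proteins and 0 for the respiratory chain without the divergent cow. The difference between tissues passed for 8 probes, for 158 under a fixed replicate block for the cow, for 445 with it as a random replicate block, and for 114 without the divergent cow. Of single genes the sign turned with the slide as a fixed block for TFF3 (0.051), ADAMTS18 (0.93), HSD17B6 (0.48), NCAM1 (-0.22), RGS2 (-0.18) and PTGS2 (1.13), and for PTGS2, which did not pass, also with the slide as a random block (0.054) and in the larger set of scans (0.035). The cause was not tested. Leaving out the divergent cow, the filter on processed signal and centring on the tested probes (1589 passed, 616 of them falls) were chosen after seeing the data. Dim probes limit the falls: a pregnant level under background has no lower bound from these arrays.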

Other observations

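The divergent cow lay outside the range of the other 9 cyclic cows in many genes, and the 4 in each direction that were farthest from the median of those cows are given as values, chosen after the values were seen. It was higher for OOSP2 (2.66, against -4.38 to 2.64), GNB4, a G-protein beta subunit (1.83, against -2.67 to 1.35), HSD3B1, a steroidogenic enzyme (2.30, against -3.02 to 0.41), and ADTRP (2.44, against -2.35 to 1.10). It was lower for MSL2, of histone acetylation (-3.94, against 0.09 to 0.89), NID1, a basement membrane protein (-3.18, against -0.23 to 1.13), YBX2, of germ cell RNA binding (-3.47, against 0.17 to 1.02), and POFUT2, a fucosyltransferase (-3.82, against -0.45 to 0.48). In the divergent cow MSL2 and NID1 were not well above background, and YBX2 was so in only part of its spots. HSD3B1 was well above background in 1 of the other 9 cyclic cows, and OOSP2 and ADTRP in 4. In its intercaruncular sample OOSP2 (2.69, against -3.63 to 2.35) and GNB4 (1.43, against -4.91 to 0.63) were again above all other cyclic cows. MSL2 (-3.40, against -1.51 to -0.82), NID1 (-2.02, against -1.57 to 0.19), YBX2 (-2.92, against -1.90 to 0.54) and POFUT2 (-3.68, against -1.66 to 0.05) were again below them. HSD3B1 (-0.52, against -2.45 to 1.48) and ADTRP (-0.78, against -1.56 to 0.06) were within their range. Of the probes that lay more than 2-fold from the median of the other cyclic cows 1749 were lower in the divergent cow.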
